A study of Mus musculus with 4 samples.

Results

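The genes described here are those of the mitochondrial respiratory chain and ATP synthase, taken from both genomes that code for them, in mouse bone marrow-derived dendritic cells. They were chosen by name alone. Every listed gene whose symbol begins with mt- was taken, and every protein-coding gene whose symbol begins with Nduf, Uqcr, Cox4 to Cox8 or Atp5, together with Sdha, Sdhb, Sdhc and Sdhd. This gave 101 of the 13685 genes listed in the deposited tables. They were 13 mitochondrially encoded mRNAs, 2 mitochondrial ribosomal RNAs (rRNAs), 76 nuclear genes for subunits, 8 assembly factors of complex I named Ndufaf, and Atp5s and Atp5sl. Atp5s and Atp5sl match the name rule and were counted neither as subunits nor with the Ndufaf genes. The 76 nuclear subunits comprised 36 of complex I, 4 of complex II, 8 of complex III, 13 of complex IV, with Ndufa4 counted there, and 15 of complex V.

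All cells derived from bone marrow of 4-week-old C57BL/6 mice, cultured over 7 days in recombinant mouse interleukin-4 (10 ng/ml) and GM-CSF (10 ng/ml). Against cells in control medium (Control), the study set cells given Wnt2, a secreted Wnt ligand (Wnt2), cells given CAF culture medium (CAF.CM; the labels do not spell out CAF), and cells given CAF.CM to which a Wnt2 antibody had been added beforehand (labelled CAF.CM+Wnt2 Ab, here CAF.CM+Ab). The labels give neither doses nor treatment times, nor how many animals were used. The design text speaks of triplicates, but each group has 1 column of values and is treated as 1 library, so no spread between replicates, and no p-value, can be computed. Differences below therefore compare libraries. The Control library serves 2 comparisons, and the CAF.CM library is compared with Control and is the baseline for CAF.CM+Ab, so those comparisons are not independent of each other.

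The respiratory chain passes electrons from NADH and succinate to oxygen. Complex I (NADH dehydrogenase) and complex II (succinate dehydrogenase) feed ubiquinone, complex III passes the electrons to cytochrome c, complex IV (cytochrome c oxidase) reduces oxygen, and complex V (ATP synthase) uses the proton gradient to make ATP. Mitochondrial DNA (mtDNA) codes for membrane core subunits of complexes I, III, IV and V and is transcribed from both strands into long precursors that are cut into mRNAs, rRNAs and transfer RNAs. Complex II is coded in the nucleus alone. In dendritic cells of this culture type, activation by microbial signals is known to shift energy supply from respiration towards glycolysis.

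The listed genes held 143071376 reads in Control, 154399767 in Wnt2, 25225220 in CAF.CM and 22791494 in CAF.CM+Ab, so values of the last 2 libraries carry a larger counting error. All 8 markers of dendritic cells that were looked up were listed in at least 1 comparison, but Flt3 only in Wnt2 against Control. Itgax (CD11c) stood at 888, 223, 47.7 and 30.3 CPM (reads scaled to the size of the library, as normalized by the authors) in Control, Wnt2, CAF.CM and CAF.CM+Ab. Cd74 stood at 1055, 119, 483 and 463 CPM, Ciita at 30.3, 4.21, 6.11 and 1.85 CPM, and Batf3 at 14.1, 5.21, 12.4 and 9.44 CPM. Summed over the 8 markers, with genes not listed for a library set to 0, the level was 2541, 471, 1098 and 1083 CPM in that order. Other markers did not follow Itgax: in CAF.CM, H2-Ab1 (489, 71.0, 483 and 521 CPM), Ccr7 (48.5, 37.5, 49.0 and 37.3 CPM) and Zbtb46 (15.7, 10.3, 17.1 and 21.2 CPM) were near their Control level. All 7 macrophage and monocyte markers were also listed, and their sum was 28292, 20586, 9526 and 6645 CPM, of which Lyz2 alone made up 25764, 18050, 6907 and 4425 CPM. The other 6 summed to 2528, 2536, 2619 and 2220 CPM. Among these Cd14 (405, 899, 988 and 959 CPM) and Ly6c2 (18.7, 20.4, 88.6 and 53.4 CPM) were higher in CAF.CM than in Control, while C1qa (40.2, 12.5, 3.73 and 1.72 CPM) was lower. Of 6 fibroblast markers 4 were listed, at a sum of 4.61, 6.64, 13.5 and 15.9 CPM, of which Dcn made up 0.509, 1.01, 10.7 and 13.9 CPM. Col1a2 and Col3a1 were listed only in Wnt2 against Control, and Col1a1 and Pdgfra were not listed. Of 5 neutrophil markers 2 were listed, at 548, 1501, 144 and 102 CPM, nearly all Mmp8. Of 3 T cell markers 1 was listed, at no more than 1.43 CPM, and no marker of B cells (4 looked up) or erythroid cells (3 looked up) was listed. In such bulk samples, fewer cells of a type and less RNA per cell cannot be told apart.

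Several mitochondrial mRNAs cannot be measured alone, because the nuclear genome holds copies of mtDNA whose letters are the same. On chromosome 1 of GRCm38, a stretch of the minus strand from chr1:24612407-24616197 carries 6 listed genes annotated as unprocessed pseudogenes, namely Gm10222 (a copy of mt-Nd4l), Gm28438 (mt-Nd3), Gm28437 (mt-Co3), Gm10925 (mt-Atp6), Gm28661 (mt-Co2) and Gm29216 (part of mt-Co1). The sequences are printed to show how little separates gene from copy. The first pair is a 90-base window of mt-Co2 (chrM:7313-7402, plus strand) and the matching window of Gm28661 (chr1:24615176-24615265, minus strand), which have the same letters.
mt-Co2: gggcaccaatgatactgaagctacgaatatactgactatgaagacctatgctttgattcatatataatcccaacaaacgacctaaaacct
Gm28661: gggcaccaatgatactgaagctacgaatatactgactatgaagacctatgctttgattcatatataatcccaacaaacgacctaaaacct

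The second pair is the start of mt-Nd3 (chrM:9459-9548, plus strand) and of Gm28438 (chr1:24613030-24613119, minus strand). The capital marks the base that differs, T3C, counted from 1 at the 5′ end of mt-Nd3.
mt-Nd3: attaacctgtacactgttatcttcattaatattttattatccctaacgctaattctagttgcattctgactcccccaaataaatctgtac
Gm28438: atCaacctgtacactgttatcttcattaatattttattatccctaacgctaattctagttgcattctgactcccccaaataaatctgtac

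The third set shows mt-Co1 (chrM:6498-6587, plus strand), its copy Gm29216 on chromosome 1 (chr1:24615991-24616080, minus strand) and a less similar copy on chromosome 2, Gm13340 (chr2:22588388-22588477, minus strand), where capitals mark the 5 bases that differ from mt-Co1.
mt-Co1: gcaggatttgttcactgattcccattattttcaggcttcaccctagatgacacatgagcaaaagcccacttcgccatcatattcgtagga
Gm29216: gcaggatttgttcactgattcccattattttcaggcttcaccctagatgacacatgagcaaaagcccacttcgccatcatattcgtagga
Gm13340: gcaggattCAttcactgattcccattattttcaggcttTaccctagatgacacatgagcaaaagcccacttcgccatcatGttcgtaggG

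Over the full compared length, Gm28661 matched mt-Co2 at all 681 bases, Gm28437 matched mt-Co3 at all 783, Gm10925 matched mt-Atp6 at all 678 and Gm10222 matched mt-Nd4l at all 294. Gm28438 differed from mt-Nd3 at 1 of 345 bases. Gm29216, which covers 492 of the 1545 bases of mt-Co1, differed at 6 of them. The share of a gene's 31-base words that also occur in another gene's annotated transcripts was under 20% for 6 mitochondrial mRNAs. It was 0% for mt-Nd1, 6.55% for mt-Cytb, 7.36% for mt-Nd6, 7.47% for mt-Atp8, 13.5% for mt-Nd2 and 16.8% for mt-Nd5. A copy without an annotated gene is not counted in this share. On mtDNA, mt-Atp8 lies between mt-Co2 and mt-Atp6, and the copies of both lie on the chromosome 1 stretch. Whether the unannotated bases between those copies match mt-Atp8 was not examined, so its low share may miss a copy. The share was 62.8% for mt-Nd4, whose copy Gm28439 (all 876 compared bases the same) was not listed in any comparison, and 63.9% for mt-Co1. It was 98.1% to 100% for mt-Co2, mt-Co3, mt-Atp6, mt-Nd3 and mt-Nd4l. Values of these 7 genes are uncertain taken alone, and each is given below with its listed copy on chromosome 1, where there is one.

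Mitochondrial mRNAs were lower in CAF.CM than in Control, and lower again in CAF.CM+Ab, while the medians of nuclear subunit mRNAs stayed near 0. A log2 ratio here is that of normalized CPM after adding 0.1 to both values, and a gene is counted as higher or lower when it passed 2-fold. In CAF.CM against Control, 11 of 13 mitochondrial mRNAs were at least 2-fold lower and 0 were at least 2-fold higher, with a median log2 ratio of -2.03. Over all 13329 genes of that comparison 14.8% passed 2-fold in either direction and 8.40% were lower, and the median was -0.04. In CAF.CM+Ab against CAF.CM, 8 of the 12 listed were at least 2-fold lower and 0 were higher, with a median of -1.43. There 3.55% of 13072 genes were at least 2-fold lower and 0.941% higher, and the median was -0.04. In Wnt2 against Control, 1 of 13 was at least 2-fold lower and 0 were higher, with a median of -0.12. There 5.43% of 13120 genes passed 2-fold in either direction and 2.71% were lower, and the median was -0.02. Counting each gene together with its listed nuclear copy gave 12 of 13 lower in CAF.CM (median -1.88), 11 of 12 in CAF.CM+Ab (median -1.61) and 0 of 13 in Wnt2 (median -0.08). The 6 mRNAs with few words shared, mt-Atp8 among them, gave 5 of 6 lower in CAF.CM (median -1.85) and 6 of 6 in CAF.CM+Ab (median -1.82). In Wnt2 they gave 0 of 6 (median 0.09).

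**Figure D1:**
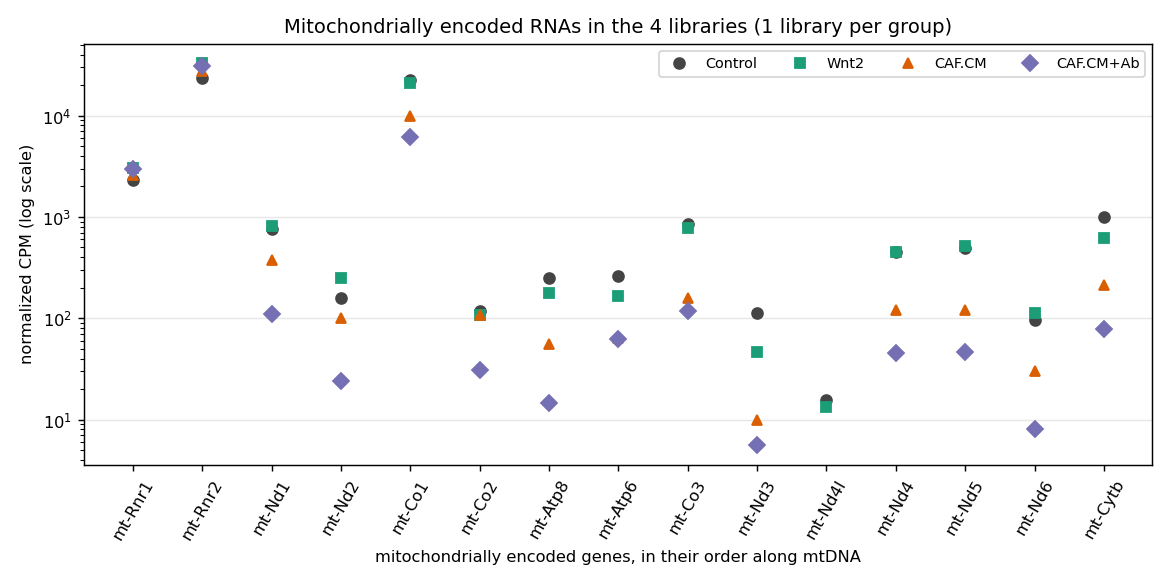
Normalized CPM (y axis, log scale) of the 15 listed mitochondrially encoded genes, in their order along mtDNA (x axis), with 1 point per library, and genes at 0 or not listed left out. Every mRNA with a point in all 4 libraries is lowest in CAF.CM+Ab, while mt-Rnr1 and mt-Rnr2 are lowest in Control.

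Mitochondrial DNA codes for 7 core subunits of the proton-pumping membrane arm of complex I. The mRNA of mt-Nd1 (chrM:2751-3707) stood at 754 CPM in Control, 821 in Wnt2, 375 in CAF.CM and 110 in CAF.CM+Ab. That of mt-Nd2 (chrM:3914-4951) stood at 159, 251, 101 and 24.0 CPM in the same order. Both were highest in Wnt2 and lowest with the antibody. The log2 ratio in CAF.CM against Control was -1.01 for mt-Nd1 (95% counting interval -1.04 to -0.98) and -0.66 for mt-Nd2 (-0.72 to -0.60). In CAF.CM+Ab against CAF.CM it was -1.76 (-1.83 to -1.70) and -2.07 (-2.21 to -1.94), so for these genes the second step was the larger one. The ratio of mt-Nd1 in CAF.CM lay at the 2-fold line, and was -0.97, -0.95 and -0.87 under 3 other scalings of the libraries, short of it each time. The intervals are exact conditional binomial intervals at 95%, and they cover counting error only.

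The mRNA of mt-Nd4 (chrM:10167-11544) stood at 450, 455, 122 and 45.2 CPM in Control, Wnt2, CAF.CM and CAF.CM+Ab. That of mt-Nd5 (chrM:11742-13565) stood at 496, 515, 122 and 46.2 CPM. Both were alike in Control and Wnt2, with log2 ratios of 0.02 and 0.05, and went down in 2 steps, by -1.88 and -2.03 in CAF.CM and by a further -1.43 and -1.39 with the antibody. The mRNA of mt-Nd6 (chrM:13552-14070), the only one listed that is coded on the other strand, stood at 95.4, 114, 29.99 and 8.14 CPM, with log2 ratios of 0.25, -1.67 and -1.87 in the 3 comparisons. It overlaps mt-Nd5 by 14 bases in antisense. No source used here states whether the authors' counting used strand, so reads in that overlap cannot be told apart.

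The 2 short complex I mRNAs, mt-Nd3 (chrM:9459-9806) and mt-Nd4l (chrM:9877-10173), share nearly all of their letters with chromosome 1. Taken alone, mt-Nd3 stood at 113 CPM in Control, 46.2 in Wnt2, 9.87 in CAF.CM and 5.56 in CAF.CM+Ab, and was the 1 mitochondrial mRNA at least 2-fold lower in Wnt2 (log2 ratio -1.29). Its copy Gm28438 stood at 66.8, 47.4, 17.2 and 0 CPM. The sum of both was 180, 93.5, 27.0 and 5.56 CPM, with log2 ratios of -0.94 in Wnt2, -2.73 in CAF.CM and -2.26 with the antibody. The call in Wnt2 thus did not hold for the sum, and the sum passed 2-fold with the antibody, where the gene alone had -0.82. mt-Nd4l stood at 15.5 and 13.2 CPM in Control and Wnt2 and had 0 reads in CAF.CM. That count gives no limit for a fold change, since reads of mt-Nd4l can be assigned to an identical copy. Its copy Gm10222, with all 294 compared bases the same, held 16.5, 21.1, 9.45 and 2.24 CPM. The sum was 32.0, 34.3 and 9.45 CPM in the first 3 libraries, a log2 ratio of 0.10 in Wnt2 and -1.75 in CAF.CM. The absence of reads on mt-Nd4l in CAF.CM went with reads on an identical copy. mt-Nd4l was not in the antibody comparison. The last 7 bases of mt-Nd4l are also the first of mt-Nd4.

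Complex III has 1 mitochondrially encoded subunit, cytochrome b. Its mRNA, mt-Cytb (chrM:14145-15288), stood at 1008 CPM in Control, 616 in Wnt2, 212 in CAF.CM and 78.4 in CAF.CM+Ab. The log2 ratios were -0.71 (95% counting interval -0.72 to -0.70), -2.25 (-2.29 to -2.21) and -1.44 (-1.52 to -1.36) in the 3 comparisons. Each library was lower than the one before it in this listing, and the steps exceeded the counting error.

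Complex IV takes its 3 catalytic core subunits from mtDNA. The mRNA of mt-Co1 (chrM:5328-6872), which codes for the subunit that holds the oxygen-reducing centre, stood at 22659, 21147, 9832 and 6090 CPM in Control, Wnt2, CAF.CM and CAF.CM+Ab. It was the most abundant mitochondrial mRNA, at 14666 CPM per kilobase of exon in Control. The other 12, also taken without copies, had levels of 52.3 to 1227 CPM per kilobase. With the copies on chromosome 1, Control held 27126 CPM for mt-Co1, 4251 for mt-Co3, 2949 for mt-Co2 and 1517 for mt-Atp6. The lead of mt-Co1 was thus smaller when copies were counted. The log2 ratios of mt-Co1 alone were -0.10, -1.20 and -0.69. Together with Gm29216 (4467, 4517, 2708 and 2282 CPM) they were -0.08, -1.11 and -0.58. The copy on chromosome 2, Gm13340, which holds 45.2% of the words of mt-Co1, stood at 2.16, 1.37, 1.31 and 0.776 CPM and is not in that sum. With it added the ratios were the same to 2 decimals.

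The other two mRNAs of complex IV share nearly every word with a copy. mt-Co2 (chrM:7013-7696), for the subunit that accepts electrons from cytochrome c, stood at 117, 108, 107 and 30.6 CPM when taken alone, a log2 ratio of -0.13 in CAF.CM. Its identical copy Gm28661 held 2831, 1761, 536 and 163 CPM, which was 96.0% of the reads of the pair in Control and 83.3% in CAF.CM. The pair together stood at 2949, 1868, 643 and 193 CPM. Its log2 ratios were -0.66 in Wnt2, -2.20 in CAF.CM (95% counting interval -2.22 to -2.17) and -1.73 with the antibody. The mRNA that had looked the least altered in CAF.CM thus differed more than 4-fold once reads on the identical copy were added. mt-Co3 (chrM:8607-9390) stood at 846, 774, 158 and 118 CPM, and with Gm28437 at 4251, 3630, 748 and 281 CPM. The log2 ratio of that sum was -0.23, -2.51 and -1.41 in the 3 comparisons, where mt-Co3 alone had -0.13, -2.42 and -0.42.

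Complex V has 2 mitochondrially encoded subunits, both of its membrane part. mt-Atp8 (chrM:7766-7969) stood at 250, 179, 55.7 and 14.4 CPM, with log2 ratios of -0.48, -2.17 and -1.94. mt-Atp6 (chrM:7927-8607) stood at 264, 166, 64.4 and 62.8 CPM, with log2 ratios of -0.67, -2.03 and -0.04. The first 43 bases of mt-Atp6 are the last 43 of mt-Atp8, and reads there may belong to either. With its copy Gm10925, mt-Atp6 stood at 1517, 1090, 445 and 159 CPM, and the log2 ratio with the antibody was -1.49 (95% counting interval -1.54 to -1.43). The gene alone was level between CAF.CM and CAF.CM+Ab, and the sum was not.

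**Figure D2:**
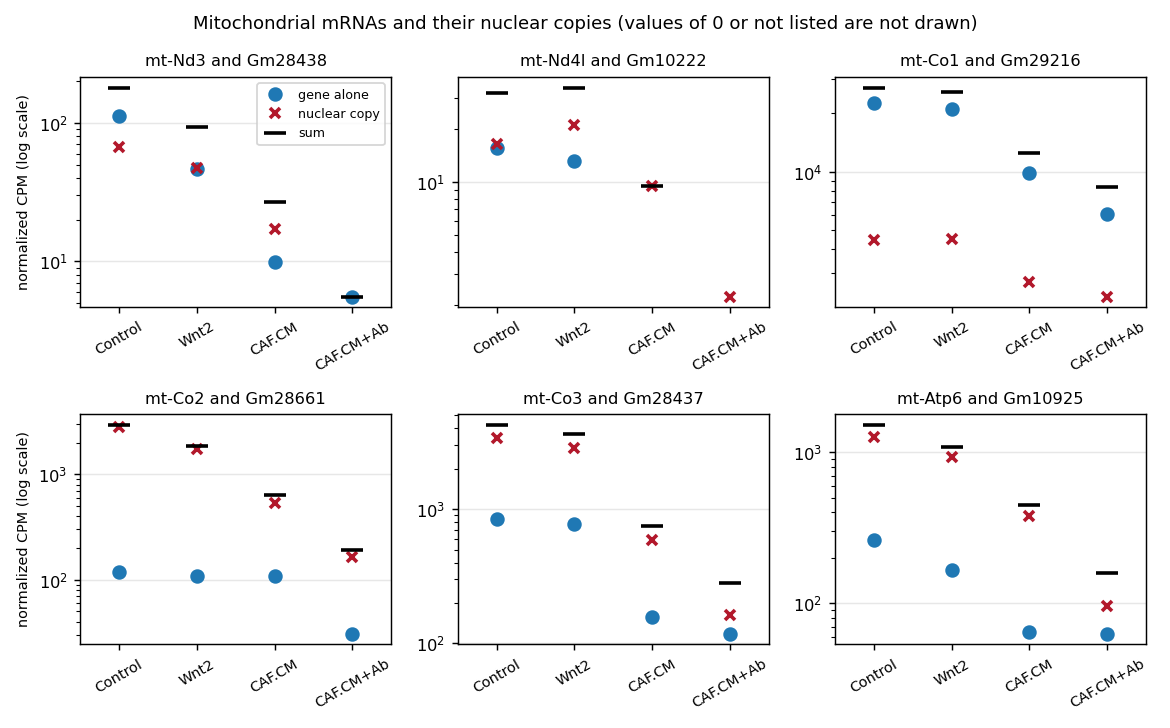
Normalized CPM (y axes, log scale) of 6 mitochondrial mRNAs (circles), of the nuclear copy of each on chromosome 1 (crosses) and of their sum (bars) in the 4 libraries (x axes, 1 library each). For mt-Co2 the gene alone is level from Control (117) to CAF.CM (107), while the sum goes from 2949 to 643.

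The 2 mitochondrial rRNAs did not share this course. mt-Rnr1, the small rRNA, stood at 2323, 3057, 2611 and 2972 CPM, and mt-Rnr2, the large rRNA, at 23761, 32971, 27536 and 30723 CPM in Control, Wnt2, CAF.CM and CAF.CM+Ab. Their median log2 ratio was 0.43 in Wnt2, 0.19 in CAF.CM and 0.17 with the antibody, and 0 of 2 passed 2-fold in any comparison. Ribosomal RNA of the cytoplasm and of mitochondria was depleted before the libraries were made, per the labels' protocols, so these levels are what depletion left. The 22 mitochondrial transfer RNAs of the annotation were not listed in any comparison.

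The authors' deposited table gives adjusted p-values from 1 library per group, with a dispersion that is not stated. By the authors' deposited table, 12 of 13 mitochondrial mRNAs had an adjusted p below 0.05 in CAF.CM, all lower, where 32.6% of listed genes had one in either direction. In CAF.CM+Ab, the authors' deposited table had 10 of 12 mitochondrial mRNAs below 0.05, all lower, where 6.98% of listed genes were below it. In Wnt2, the authors' deposited table had 3 of 13 below 0.05 and lower (mt-Nd3, mt-Cytb and mt-Atp6) and 1 higher (mt-Nd2), where 15.4% of listed genes were below it.

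Among the 76 nuclear subunits, ratios were small. In CAF.CM against Control 0 were at least 2-fold higher and 1 at least 2-fold lower, where 6.43% and 8.40% of all genes were. The median log2 ratio was 0.16, and 55 of 76 lay above 0 (72.4%) where 46.6% of all genes did. In Wnt2 0 were at least 2-fold higher and 1 at least 2-fold lower, where 2.73% and 2.71% of all genes were. Here the median was -0.16, and 71 of 76 lay below 0 (93.4%) where 52.9% of all genes did. In CAF.CM+Ab against CAF.CM 0 of 75 passed 2-fold in either direction, where 4.49% of all genes did, and the median was 0.05. Under the 3 other scalings 58 to 62 subunits lay above 0 in CAF.CM and 67 to 69 below 0 in Wnt2. Scaling to nuclear protein-coding genes moved the median of all genes in CAF.CM by 0.13, and the share of higher genes among those past 2-fold from 43.4% to 53.8%, and so raised every ratio of that comparison alike. Relative to the median of all genes, the nuclear subunits stood at 0.20, a difference that a scaling cannot alter. At a lower threshold of 1.5-fold, 0 nuclear subunits were higher and 3 lower in Wnt2 (7.13% and 7.78% of all genes), 5 were higher and 2 lower in CAF.CM (13.5% and 17.7%), and 0 passed in CAF.CM+Ab (4.36% of all genes higher and 10.6% lower). The 1 subunit gene past 2-fold was the same in both comparisons with Control, Cox6a2.

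**Figure D3:**
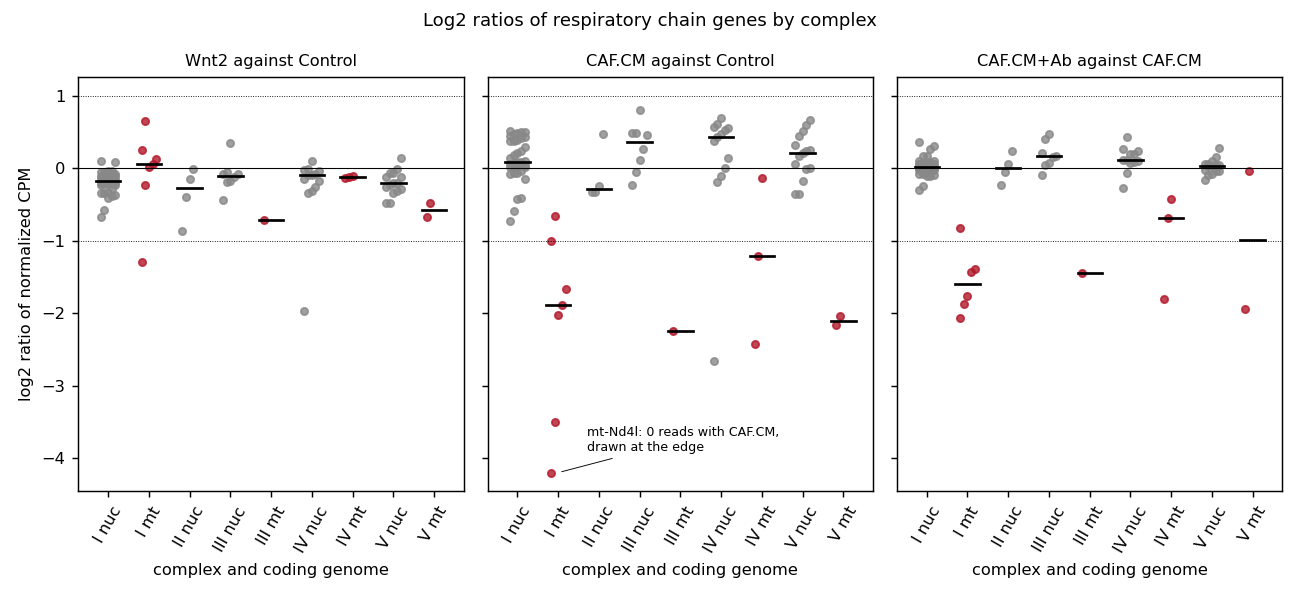
Log2 ratios of normalized CPM (y axis) for nuclear subunits (grey, nuc) and mitochondrial mRNAs (red, mt) of each complex (x axis) in the 3 comparisons, with 1 point per gene, a bar at the median of each set and dotted lines at 2-fold. In CAF.CM the mitochondrial mRNAs lie below 0 at a median of -2.03, and the nuclear subunits lie around a median of 0.16.

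Of the listed nuclear subunits of complex I, 7 are core subunits, among them those that bind the flavin and the iron-sulfur clusters. The other 29 are accessory subunits. In CAF.CM the median log2 ratio was -0.06 for the core genes and 0.10 for the accessory genes. The core median was 0.07 when libraries were scaled to nuclear protein-coding genes, so its direction depends on the scaling. Ndufs8 (chr19:3908863-3912774), which binds iron-sulfur clusters on the way to ubiquinone, had the lowest ratio of the nuclear complex I subunits in Wnt2 and CAF.CM. It stood at 17.5 CPM in Control, 10.9 in Wnt2, 10.5 in CAF.CM and 11.8 in CAF.CM+Ab, a log2 ratio of -0.68 (95% counting interval -0.77 to -0.59) in Wnt2 and -0.73 (-0.92 to -0.55) in CAF.CM. The 3 treated libraries lay close together and below Control. Ndufs3, another core subunit, had the highest ratio in CAF.CM, at 33.9, 31.1, 48.6 and 50.3 CPM (log2 ratio 0.52). With 49.3% of its words shared with other transcripts, its value is uncertain.

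Among the accessory subunits, Ndufv3, of the NADH-oxidising module, stood at 45.4, 48.9, 64.7 and 67.2 CPM. It had the highest ratio of the nuclear complex I subunits in Wnt2, at 0.11. Ndufb8, of the membrane arm, was lower in all treated libraries, at 57.9 CPM in Control and 38.8, 43.4 and 42.5 CPM in Wnt2, CAF.CM and CAF.CM+Ab. With the antibody the lowest ratio of the nuclear complex I subunits was that of Ndufa10 (53.0 CPM in CAF.CM and 42.9 with the antibody, -0.30). The highest was that of Ndufab1, the mitochondrial acyl carrier protein (35.8 and 45.9 CPM, 0.36). Neither came near 2-fold. The 8 Ndufaf genes, which help to assemble complex I and are not part of it, had 0 members past 2-fold in any comparison. Of all genes 5.43% passed it in Wnt2, 14.8% in CAF.CM and 4.49% with the antibody, so 0 of 8 says little. The median of the Ndufaf genes was 0.22 in CAF.CM. Ndufaf2 (4.66, 4.63, 8.03 and 8.32 CPM, 0.77) was the highest and Ndufaf4 (12.5, 8.64, 10.1 and 10.5 CPM, -0.30) the lowest.

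Complex II is made from 4 nuclear genes. Sdha, the flavoprotein that oxidises succinate, stood at 158, 143, 134 and 139 CPM in Control, Wnt2, CAF.CM and CAF.CM+Ab. Sdhb, the iron-sulfur subunit, stood at 55.8, 30.5, 44.7 and 43.3 CPM. Of the membrane anchors, Sdhc stood at 43.2, 32.8, 34.5 and 29.4 CPM and Sdhd at 64.9, 64.3, 90.4 and 107 CPM. Sdhb in Wnt2 had the lowest log2 ratio of the complex in any comparison, -0.87 (95% counting interval -0.92 to -0.82). Sdha, Sdhb and Sdhc were lower in CAF.CM, by -0.25, -0.32 and -0.32, while Sdhd was higher, by 0.48, and the median of the complex was -0.28. The median was between -0.24 and -0.15 under the 3 other scalings. It was the only complex whose nuclear genes had a median below 0 in CAF.CM.

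Complex III has 8 listed nuclear subunits, with a median log2 ratio of 0.36 in CAF.CM. Uqcrh, the hinge subunit that helps cytochrome c bind, had the highest ratio of any nuclear subunit there. It stood at 89.2 CPM in Control, 114 in Wnt2, 156 in CAF.CM and 175 in CAF.CM+Ab, with a log2 ratio of 0.80 (95% counting interval 0.75 to 0.86) in CAF.CM and 0.35 in Wnt2. Every treated library lay above Control. Uqcrc1, a core scaffold subunit, was the lowest of the 8 in each comparison, at 75.8, 56.2, 64.7 and 60.5 CPM (-0.43 in Wnt2, -0.23 in CAF.CM and -0.10 with the antibody). The Rieske iron-sulfur protein Uqcrfs1 stood at 44.7, 42.2, 63.0 and 73.0 CPM. Uqcr10, a small subunit, had the highest ratio with the antibody, at 32.6 CPM in CAF.CM and 45.2 in CAF.CM+Ab (0.47).

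Complex IV had the highest median of the 5 complexes in CAF.CM, 0.43 over 13 nuclear subunits, of which 10 lay above 0. Its nuclear subunits surround the catalytic core, and several have forms that differ by tissue or oxygen supply. Cox6a1, the widespread form of subunit VIa, stood at 62.1, 58.2, 83.7 and 95.8 CPM. Cox6a2 (chr7:128205435-128206387), known as its heart and skeletal muscle form, stood at 5.63 CPM in Control, 1.37 in Wnt2 and 0.806 in CAF.CM, or 797, 210 and 21 reads, and was not in the antibody comparison. Its log2 ratio was -1.97 (95% counting interval -2.27 to -1.82) in Wnt2 and -2.66 (-3.50 to -2.18) in CAF.CM. The 2 forms had ratios of opposite sign in CAF.CM, where Cox6a1 had 0.43. In Control, Cox6a2 was the lowest of all nuclear subunits in CPM.

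Cox7a2, the liver form of subunit VIIa, stood at 34.0, 33.9, 55.3 and 59.7 CPM and had the highest ratio of complex IV in CAF.CM, 0.70 (95% counting interval 0.61 to 0.79). Its relative Cox7a2l stood at 289, 312, 442 and 507 CPM (0.61 in CAF.CM, and 0.11 in Wnt2, the highest of complex IV there). Cox4i1, the common form of subunit IV, stood at 196, 184, 182 and 175 CPM, and Cox6b1 at 94.0, 92.1, 136 and 145 CPM. Cox8a, the common form of subunit VIII, stood at 143, 127, 212 and 255 CPM. Per kilobase of exon Cox8a was the most abundant nuclear subunit in Control, at 232 CPM, where the median nuclear subunit had 24.6 CPM per kilobase. Among the nuclear subunits of complex IV, the lowest ratios with the antibody and, Cox6a2 aside, in Wnt2 and CAF.CM were those of Cox5b, at 54.3, 42.9, 47.8 and 39.8 CPM. The alternative forms Cox4i2, Cox6b2, Cox7a1, Cox7b2, Cox8b, Cox8c and Ndufa4l2 were not listed in any comparison. Ndufa4, named for complex I but known as a complex IV subunit, stood at 7.60, 6.33, 7.64 and 10.3 CPM, and had the highest ratio of complex IV with the antibody, 0.43. AA467197, its paralog and no member of the set, stood at 173, 144, 348 and 326 CPM, which was 1.01 on the log2 scale in CAF.CM, just past 2-fold.

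Complex V had a median of 0.21 in CAF.CM over 15 nuclear subunits. Of its catalytic head, Atp5a1 (alpha) stood at 394, 284, 349 and 388 CPM, Atp5b (beta) at 339, 274, 265 and 275 CPM, and Atp5d (delta) at 73.3, 80.6, 117 and 122 CPM. Among the nuclear subunits, Atp5b had the lowest ratio in CAF.CM, -0.36. Atp5d had the highest there, 0.67 (95% counting interval 0.61 to 0.73), and in Wnt2, 0.14, so that subunits of the same head did not move as one. The c-ring, the rotor turned by protons, is coded by 3 genes for the same mature protein. Atp5g1 stood at 26.7, 19.1, 20.9 and 22.6 CPM, Atp5g2 at 87.7, 72.1, 133 and 126 CPM, and Atp5g3 at 42.8, 37.4, 42.9 and 40.1 CPM. In CAF.CM they had log2 ratios of -0.35, 0.60 and 0.00, and in Wnt2 Atp5g1 had the lowest of the nuclear subunits of the complex, -0.48. With the antibody the highest nuclear ratio of complex V was that of Atp5e (41.2 and 50.2 CPM, 0.29) and the lowest that of Atp5j (35.9 and 32.1 CPM, -0.16).

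By the authors' deposited table, 11 nuclear subunits had an adjusted p below 0.05 and were higher in CAF.CM and 3 were lower (Cox6a2, Ndufs8 and Ndufb2), where 32.6% of listed genes were below it. The higher ones in the authors' deposited table were Uqcrh, Cox7a2, Cox7a2l, Cox6b1, Cox7c, Cox8a, Atp5d, Atp5g2, Atp5c1, Ndufs3 and Ndufv3. In Wnt2 the authors' deposited table had 4 lower (Cox6a2, Sdhb, Ndufs8 and Ndufb8) and 0 higher, where 15.4% of listed genes were below it, and with the antibody 0 in either direction, where 6.98% were. For 10 nuclear subunits, among them Ndufs3, Cox7a2l and Cox7c, 21.1% to 49.3% of the 31-base words also occur in other transcripts, so their counts are uncertain.

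Set against each other, the 2 genomes parted in the libraries with CAF.CM. The median of the mitochondrial mRNAs minus that of the nuclear subunits was 0.04 on the log2 scale in Wnt2, -2.18 in CAF.CM and -1.48 in CAF.CM+Ab against CAF.CM. The genes present in all tables gave the mitochondrial mRNAs (12 genes) 2.70% of reads in Control, 2.51% in Wnt2, 1.16% in CAF.CM and 0.676% in CAF.CM+Ab. The nuclear subunits (75 genes) held 0.458%, 0.409%, 0.547% and 0.571%. The ratio of these sums was 5.89, 6.14, 2.11 and 1.18, and it was 8.50, 8.60, 2.91 and 1.67 with the nuclear copies added to the mitochondrial side. Since mt-Co1 made up most of the mitochondrial sum, the ratio was also taken without it, at 0.986, 0.985, 0.256 and 0.0969. All 3 versions put Control and Wnt2 close together, CAF.CM lower and CAF.CM+Ab lowest.

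The same order of the last 2 libraries held in each complex that draws on both genomes. The ratio of summed mitochondrial to summed nuclear CPM in complex I was 1.78 in Control, 2.17 in Wnt2, 0.590 in CAF.CM and 0.182 in CAF.CM+Ab. In complex III it was 2.43, 1.54, 0.398 and 0.132. In complex IV it was 20.99, 20.4, 6.78 and 3.80, and in complex V 0.323, 0.258, 0.0714 and 0.0444. Only in complex I was the ratio higher in Wnt2 than in Control. Reads on the nuclear copies are not in these sums. With its copy, mt-Atp6 held 1517, 1090, 445 and 159 CPM in Control, Wnt2, CAF.CM and CAF.CM+Ab. The nuclear subunits of complex V held 1595, 1338, 1682 and 1738 CPM. The size of these ratios, and in complex V the step with the antibody, thus depend on whether copies are counted.

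**Figure D4:**
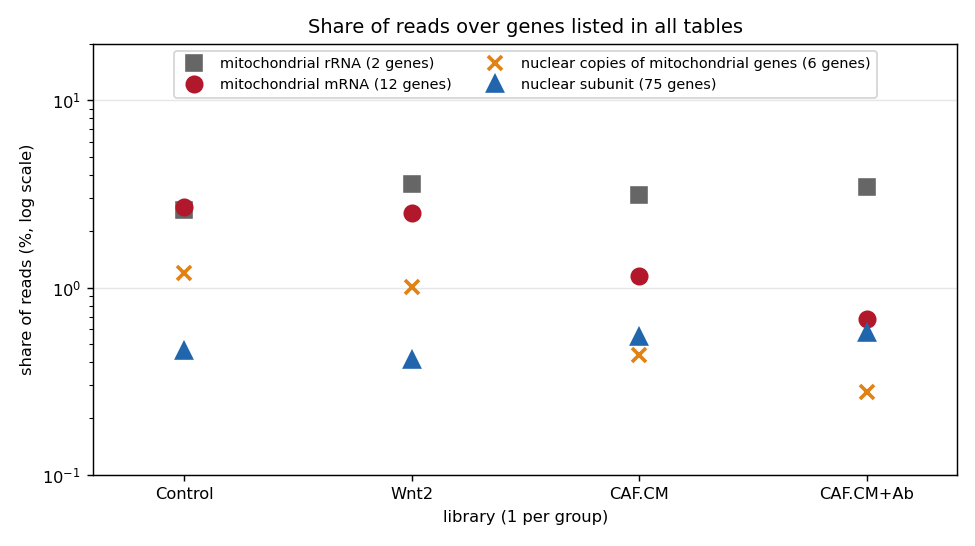
Share of reads (y axis, percent, log scale) held by mitochondrial rRNAs, mitochondrial mRNAs, the nuclear copies of mitochondrial genes and nuclear subunits in the 4 libraries (x axis, 1 library each), over genes listed in all tables. The mitochondrial mRNAs go from 2.70% in Control to 0.676% in CAF.CM+Ab, and the nuclear subunits from 0.458% to 0.571%.

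Other properties of the libraries moved in the same order. Malat1, a noncoding RNA that stays in the nucleus, held 1.38% of reads in Control, 1.76% in Wnt2, 2.86% in CAF.CM and 3.86% in CAF.CM+Ab. Protein-coding genes held 81.2%, 80.1%, 75.8% and 72.4%. Of the marker genes given above, Itgax, Lyz2 and C1qa were lower in each library than in the one before it. Cd74, H2-Ab1, Ccr7, Zbtb46, Cd14, Ly6c2 and Mmp8 did not follow that order, while Csf1r and Cd68, not given above, did. Dcn and the fibroblast marker sum were higher at each step, but Dcn made up most of that sum in the CAF.CM libraries. Pdgfrb, at 2.67, 1.99, 2.80 and 2.03 CPM, did not rise with it. Col1a2 and Col3a1 entered the sum as 0 in the CAF.CM libraries. The sum of macrophage and monocyte markers without Lyz2 did not separate the CAF.CM libraries from Control and Wnt2. Depth did separate them. The part of these properties in the result was not tested.

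Genes that act on mitochondrial transcripts were looked up as lists. Counts past 2-fold in these and the following lists stand beside 5.43% of all genes in Wnt2, 14.8% in CAF.CM and 4.49% with the antibody, so a count of 0 or 1 in a list of a few genes says little. Of 15 listed genes for transcription and upkeep of mtDNA, 0 passed 2-fold in any comparison, and the median in CAF.CM was -0.13 (0.01 when scaled to nuclear protein-coding genes). Tfam, which packs mtDNA and starts transcription, had a log2 ratio of -0.43 in CAF.CM, and Polrmt, the mitochondrial RNA polymerase, -0.13. The highest of the list in CAF.CM was Polg2, the accessory subunit of the mtDNA polymerase, at 6.39, 8.14, 12.8 and 19.9 CPM (0.99). Of 19 listed genes for processing and decay of mitochondrial RNA, 0 passed 2-fold in any comparison, and the median in CAF.CM was -0.08 (0.05 when scaled to nuclear protein-coding genes). Lrpprc and Slirp, partners that stabilise mitochondrial mRNAs, had -0.40 and 0.99, Slirp at 26.7, 26.3, 53.1 and 59.0 CPM.

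Of 78 listed proteins of the mitochondrial ribosome, 2 were at least 2-fold higher in CAF.CM, Mrpl45 (27.8, 37.5, 67.6 and 81.6 CPM, 1.28) and Mrpl32 (11.2, 12.2, 22.8 and 28.0 CPM, 1.01), and 0 were lower, where 6.43% and 8.40% of all genes were. The median of the 78 was 0.17, and 60 (76.9%) lay above 0, where 46.6% of all genes did. Of 8 listed regulators of mitochondrial biogenesis 0 passed 2-fold in any comparison (5.43%, 14.8% and 4.49% of all genes did). Ppargc1b, a coactivator of respiratory genes, was the lowest in Wnt2 and CAF.CM, at 7.66, 4.17, 4.42 and 4.05 CPM (-0.86 and -0.78). Of 18 genes of the citric acid cycle and pyruvate dehydrogenase 0 passed 2-fold in any comparison, beside the same shares of all genes.

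Among assembly factors of complex IV, 2 of 20 were at least 2-fold higher in CAF.CM and 1 lower, where 6.43% and 8.40% of all genes were. Surf1 stood at 25.9, 24.4, 57.1 and 55.6 CPM (1.14), Coa6 at 6.06, 6.06, 12.2 and 9.52 CPM (1.00), and Coa7 at 7.44, 5.21, 2.27 and 2.11 CPM (-1.67). Sdhaf1, 1 of 4 assembly factors of complex II, was at least 2-fold higher in CAF.CM, as were 6.43% of all genes, at 7.13, 7.24, 14.4 and 19.1 CPM (1.00). Assembly factors of complex I not named Nduf (7 listed), of complex III (5) and of complex V (4), and the carriers of adenine nucleotides and phosphate (3), had 0 past 2-fold in any comparison. The ratios of Surf1, Coa6 and Sdhaf1 stood at or just past the limit, and none of the 3 was near it in Wnt2.

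Among the other ways for electrons to enter the chain, Gpd2, the glycerol phosphate dehydrogenase of the inner membrane, was 1 of 9 listed and the only one past 2-fold, at 34.1, 27.6, 74.4 and 66.8 CPM (1.12 in CAF.CM, where 6.43% of all genes were at least 2-fold higher). Of 8 genes for itaconate, uncoupling and oxygen response, 2 were at least 2-fold higher and 1 lower in CAF.CM, 1 was higher in Wnt2 and 1 lower with the antibody, where 6.43%, 8.40%, 2.73% and 3.55% of all genes were. Acod1, which makes the succinate dehydrogenase inhibitor itaconate, stood at 52.5, 56.8, 137 and 41.8 CPM, 1.38 in CAF.CM and -1.71 with the antibody. Bnip3, a mitophagy receptor, stood at 101, 285, 203 and 194 CPM, 1.496 in Wnt2 and 1.01 in CAF.CM. Ucp2, an uncoupling protein family member of the inner membrane, stood at 303, 274, 75.4 and 46.8 CPM, -2.01 in CAF.CM. Acod1 was the only gene of these lists past 2-fold with the antibody.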

How the data were processed

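Total RNA (1 ug, depleted of ribosomal RNA) was made into stranded libraries, per the labels' protocols. The submitters' processing notes name the tools RSEM 1.2.29, STAR 2.4.2a and edgeR, and both mm10 and GRCm38.p5 as builds. The deposited library columns are normalized CPM with 3 decimals, in 3 tables, 1 per comparison. Values of libraries in 2 tables were identical. Each table lists genes that reached about 1 CPM in 1 of its libraries. Per the file headers, the tables also hold the authors' mean CPM and fold change, both log2, with p-values and adjusted p-values.

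The plan had assumed counts, while the files hold CPM. Values were whole multiples of 1 step per library for 99.96% to 100% of genes within 0.1 step, and reads were taken from these steps for 95% exact conditional binomial (Clopper-Pearson) intervals. A read was worth 0.00706, 0.00651, 0.0384 and 0.0431 CPM in Control, Wnt2, CAF.CM and CAF.CM+Ab. Reads without molecular identifiers are not independent molecules. No count test was run. Sums, intervals and ratios were computed with pandas 2.3.3, numpy 2.4.6 and scipy 1.17.1 (Python 3.11.15), drawn with matplotlib 3.10.9 and tested on simulated data. Sequences, positions and exon lengths come from GENCODE M21 (GRCm38), which held 99.82% of the listed gene IDs. Shared words of 31 bases were counted over its transcripts.

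The genes and lists were chosen with earlier results of these data known. Named are all mitochondrial mRNAs, genes past 2-fold, the highest and lowest nuclear subunits of each complex per comparison, Sdh genes and isoform sets. Also named are genes past 2-fold or highest or lowest in each list. Tfam, Polrmt, Lrpprc, Uqcrfs1, Atp5a1, Ndufaf2, Ndufaf4 and the further genes named from the authors' table were added to this rule with their values in view. Some list genes the rule took are not reported here. Alternatives were 3 other scalings, pseudocounts of 0.01 and 1, a minimum of 100 reads, a 1.5-fold threshold, the authors' log2 fold changes and, chosen after seeing the data, adding nuclear copies and keeping mRNAs with under 20% shared words.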

Additional observations from a re-analysis of the deposited data

How the results depend on the processing

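No result changed sign past 2-fold under any alternative run. No paired analysis was possible because each group has 1 library, and for the same reason no library could be left out. The planned addition of pseudogenes named -ps changed nothing, since 0 such genes were listed for any subunit. Scaling to nuclear protein-coding genes gave mitochondrial medians of -0.10 in Wnt2 and -1.89 in CAF.CM and a nuclear median of 0.29 in CAF.CM. At 1.5-fold, 1 mitochondrial mRNA was higher and 3 were lower in Wnt2, where 7.13% and 7.78% of all genes were. At that threshold 3 nuclear subunits were lower in Wnt2, and 5 were higher and 2 lower in CAF.CM, where 13.5% and 17.7% of all genes were. Adding nuclear copies gave mitochondrial medians of -0.08, -1.88 and -1.61 in Wnt2, CAF.CM and CAF.CM+Ab, with 0 mRNAs lower in Wnt2. The 6 mRNAs with few shared words gave medians of 0.089, -1.85 and -1.82, of which 0 were lower in Wnt2 and 5 in CAF.CM, and gaps to the nuclear median of 0.249, -2.004 and -1.862. These shifts follow from which genes and reads enter. The medians in Wnt2 thus lie on either side of 0. Of the single genes, mt-Nd1 in CAF.CM went from -1.01 to between -0.97 and -0.87 under 3 scalings, just short of 2-fold, with 21 of 22 member calls kept. The cause was not tested. The CAF.CM and CAF.CM+Ab libraries hold fewer reads, which widens their counting intervals.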

Other observations

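Listed in their order along the heavy-strand transcript, with the listed copies on chromosome 1 added, the log2 ratios in CAF.CM against Control were -1.01 for mt-Nd1, -0.66 for mt-Nd2 and -1.11 for mt-Co1, then -2.20 for mt-Co2, -2.17 for mt-Atp8, -1.77 for mt-Atp6, -2.51 for mt-Co3, -2.73 for mt-Nd3, -1.75 for mt-Nd4l, -1.88 for mt-Nd4, -2.03 for mt-Nd5 and -2.25 for mt-Cytb. The first 3 mRNAs lay above all that follow. In CAF.CM+Ab against CAF.CM the same order gave -1.76 and -2.07 for mt-Nd1 and mt-Nd2, -0.58 for mt-Co1, and -2.26 to -1.39 for the rest, so that mt-Co1 alone lay above. This ordering was chosen after the values were seen and was not tested.

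The reads of a gene and its nuclear copy were not shared out in the same way in all libraries. For mt-Co3 and Gm28437 the copy held 80.1%, 78.7%, 78.9% and 58.2% of the pair in Control, Wnt2, CAF.CM and CAF.CM+Ab. For mt-Atp6 and Gm10925 it held 82.6%, 84.8%, 85.5% and 60.5%. For mt-Nd3 and Gm28438 it held 37.2%, 50.6%, 63.5% and 0%. Ratios of either gene of a pair taken alone move with these shares.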
